A study of Rattus norvegicus with 40 samples.

Results

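Mki67, Top2a, Cdk1, Ccnb1 and Pcna are transcripts by which cell division is commonly followed, and they are described here in microglia of adult rats, a cell that divides rarely in the healthy adult nervous system. The set was defined by 5 Ensembl gene IDs, ENSRNOG00000028137, ENSRNOG00000053047, ENSRNOG00000000632, ENSRNOG00000058539 and ENSRNOG00000021264 in the order of the names, and 5 of the 5 were found among the 32883 IDs of the count table. The names came with the definition of the set. Neither the count table nor the reference gene table pairs Ensembl IDs with symbols, so the names could not be checked against an annotation.

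The 40 RNA libraries came from microglia of 8-week-old Sprague Dawley rats, collected with magnetic beads carrying an antibody against CD11b, a surface protein that other myeloid cells also carry. The 8 groups held 5 libraries each and combined sex, gestational exposure and region: female hypoxia, female normoxia, male hypoxia and male normoxia in the C3 to C6 cervical spinal cord, and the same 4 in the medulla. Hypoxia offspring were born to dams that spent gestational days 10 to 21 in intermittent hypoxia, 8 hours a day at 15 cycles per hour between 10.5% and 21% oxygen. Normoxia offspring were born to dams given the same cycles at 21% oxygen throughout, and all offspring were born and reared in ordinary housing. Libraries of the cord and the medulla with the same number came from the same animal, 20 animals in all, and per the series design 1 male and 1 female were taken from each of 5 litters per exposure.

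Library totals ran from 6061346 to 24039411 reads. Female hypoxia medulla replicate 3 was the shallowest and had reads in 13379 genes, against 15094 to 18339 genes in the other 39 libraries. Because IDs could not be matched to symbols, the markers of microglia and of other cell types were not checked, and the other genes of the cell cycle were not analysed here. In bulk RNA, fewer dividing cells and less of a transcript per cell cannot be told apart. Levels are given in CPM, the count of a gene scaled by the total of its library. Levels are compared between libraries for 1 gene at a time and not between genes, since transcript lengths were not used. Fold changes come from fits that also scale for the composition of a library, so they can differ from ratios of the CPM.

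A cell that leaves rest copies its DNA in S phase and divides in mitosis, and the 5 genes act at different points of that course. Pcna encodes the ring-shaped clamp that holds DNA polymerase on its template, and it also serves DNA repair in cells that are not dividing. Top2a encodes the topoisomerase that untangles copied chromosomes, Cdk1 the kinase that starts mitosis, and Ccnb1 cyclin B1, the regulatory subunit that activates it. Mki67 encodes Ki-67, a protein that coats mitotic chromosomes and is used in histology to count cycling cells.

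Transcripts of mitotic genes are held back in resting cells through an element of the promoter called the cell cycle genes homology region (CHR), often near CCAAT boxes, while genes of DNA synthesis are often bound by E2F factors. The promoters of the 5 genes were matched by symbol in RefSeq's table for the GRCr8 assembly, 5 of 5. The 250 bases before the table's start site are shown because the members did not vary as 1 block, as described below. Capitals mark the letters searched, on both strands: TTTGAA or TTCGAA for the CHR, CCAAT for the CCAAT box, and TTTCCCGC, TTTCGCGC, TTTGCCGC or TTTGGCGC for E2F.

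Mki67, GRCr8 chr1:199952594-199952843, minus strand: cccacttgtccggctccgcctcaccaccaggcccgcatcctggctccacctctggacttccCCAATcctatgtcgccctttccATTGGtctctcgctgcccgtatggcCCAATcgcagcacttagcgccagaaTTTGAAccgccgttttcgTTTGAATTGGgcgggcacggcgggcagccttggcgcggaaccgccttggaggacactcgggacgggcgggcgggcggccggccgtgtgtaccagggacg

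Top2a, GRCr8 chr10:84473094-84473343, minus strand: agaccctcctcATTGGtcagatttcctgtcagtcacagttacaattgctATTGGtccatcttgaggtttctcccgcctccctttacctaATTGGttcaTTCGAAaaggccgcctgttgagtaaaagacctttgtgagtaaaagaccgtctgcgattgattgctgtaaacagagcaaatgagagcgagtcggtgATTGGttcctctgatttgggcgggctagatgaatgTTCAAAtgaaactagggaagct

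Cdk1, GRCr8 chr20:19265043-19265292, plus strand: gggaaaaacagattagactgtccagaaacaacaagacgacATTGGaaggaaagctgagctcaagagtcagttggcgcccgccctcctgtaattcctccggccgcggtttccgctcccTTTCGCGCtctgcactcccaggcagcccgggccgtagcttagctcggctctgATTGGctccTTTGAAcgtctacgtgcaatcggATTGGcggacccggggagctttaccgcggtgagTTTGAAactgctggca

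Ccnb1, GRCr8 chr2:33655226-33655475, minus strand: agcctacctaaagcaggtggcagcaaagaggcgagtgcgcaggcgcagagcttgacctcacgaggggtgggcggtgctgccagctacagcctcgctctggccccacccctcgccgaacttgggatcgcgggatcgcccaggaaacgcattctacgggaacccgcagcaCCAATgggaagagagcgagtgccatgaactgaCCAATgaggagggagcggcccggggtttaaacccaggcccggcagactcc

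Pcna, GRCr8 chr3:139955821-139956070, minus strand: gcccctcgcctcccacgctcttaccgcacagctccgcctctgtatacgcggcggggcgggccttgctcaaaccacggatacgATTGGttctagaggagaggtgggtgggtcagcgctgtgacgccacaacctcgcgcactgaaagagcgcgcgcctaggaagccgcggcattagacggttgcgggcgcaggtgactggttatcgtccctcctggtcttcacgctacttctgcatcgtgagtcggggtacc

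The windows of Mki67, Top2a and Cdk1 each held 2 matches to the CHR words searched, and those of Ccnb1 and Pcna held 0. Other spellings of the element were not searched, so 0 does not show that a window lacks it. Among 33469 promoter windows of the same length, 17.4% held at least 1 CHR word and 2.3% held 2 or more. CCAAT occurred 4 times in the Mki67 window, 4 times in that of Top2a, 3 times in that of Cdk1, 2 times in that of Ccnb1 and 1 time in that of Pcna, and at least 1 time in 11385 of the 33469 windows. An E2F word was present in the Cdk1 window, 133 bases before the start, and in 1.73% of all windows. In Mki67 the CHR word that begins 99 bases before the start shares 1 base with a CCAAT box on the other strand. For Mki67 the start used lay 254 bases inside the outer edge of the annotated gene, and for Cdk1 41 bases inside it. A match of letters is a description of the sequence only.

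All 5 genes were detected in 40 of 40 libraries, and all 5 passed the filter on low counts in every fit. Over the 40 libraries Pcna ranged from 71.7 to 271 CPM (median 131 CPM) and Mki67 from 38.7 to 90.9 CPM (median 59.4 CPM). Top2a ranged from 6.43 to 49.5 CPM, Cdk1 from 0.66 to 8.32 CPM and Ccnb1 from 2.29 to 7.98 CPM. The highest library thus exceeded the lowest 12.6-fold for Cdk1, 7.69-fold for Top2a, 3.78-fold for Pcna, 3.48-fold for Ccnb1 and 2.35-fold for Mki67. Counts behind these levels were 800 to 5593 reads for Pcna and 313 to 1643 for Mki67, but 4 to 150 for Cdk1 and 17 to 146 for Ccnb1. The lowest Cdk1 value rests on 4 of 6061346 reads in female hypoxia medulla replicate 3, with a 95% Wilson interval of 0.257 to 1.7 CPM that covers counting error only.

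**Figure D1:**
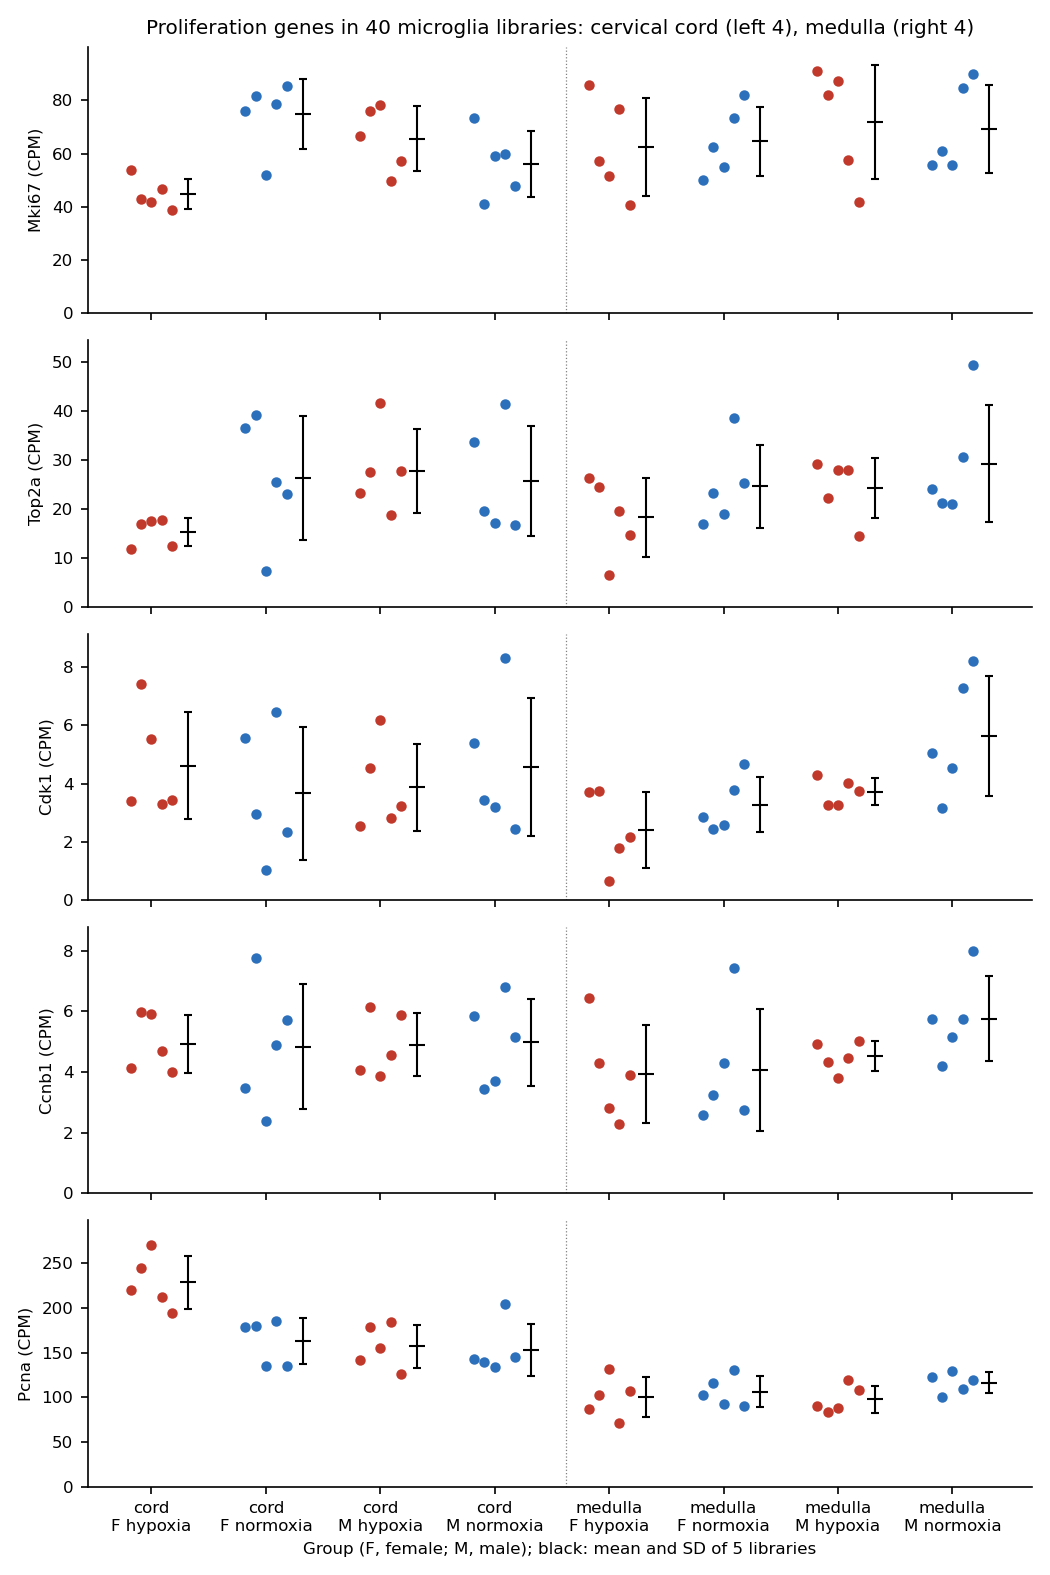
Level of each gene in CPM (y axes, from 0) in the 8 groups (x axis; F female, M male; red hypoxia, blue normoxia). Points are libraries and black bars the mean and SD of 5 libraries. Pcna has its highest mean in the female hypoxia cord, with libraries at 195 to 271 CPM. Male normoxia cord replicate 4, at 204 CPM of Pcna, lies within that range. Mki67 has its lowest mean, 44.8 CPM, in the female hypoxia cord.

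In the cervical cord of females, Pcna was higher and Mki67 lower in hypoxia offspring than in normoxia offspring, while Top2a, Cdk1 and Ccnb1 did not pass the test. Pcna stood at 220.0, 244, 271, 212 and 195 CPM in the female hypoxia cord libraries, against 178, 180.2, 134, 186 and 135 CPM in the female normoxia cord libraries. The groups did not overlap, and every hypoxia library lay above the highest normoxia library. Of 14832 genes, 6.56% were likewise higher with no overlap in this comparison. The means were 228 ± 29.7 CPM in hypoxia and 163 ± 25.7 CPM in normoxia (SD, n = 5 each). Pcna rose 1.57-fold in the fit (log2 fold change 0.65, SE 0.15, edgeR quasi-likelihood adjusted p = 0.00226). The ratio of the CPM means was 1.40.

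Mki67 stood at 53.9, 42.9, 41.9, 46.5 and 38.7 CPM in the female hypoxia cord, against 75.9, 81.7, 52.0, 78.6 and 85.2 CPM in the female normoxia cord. The groups overlapped through 1 normoxia library, replicate 3 at 52.0 CPM, which lay below the highest hypoxia library. The other 4 normoxia libraries lay above all 5 hypoxia libraries. Mki67 fell to 44.8 ± 5.8 CPM in hypoxia, against 74.7 ± 13.1 CPM in normoxia (SD, n = 5 each; log2 fold change -0.59, SE 0.16, edgeR adjusted p = 0.00695). Both calls held in 18 of 18 alternatives, with adjusted p up to 0.00897 for Pcna and 0.0268 for Mki67.

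These 2 of 5 members are to be read against a background in which 4458 of 13593 genes, 32.8%, were called in the female cord. The share called higher was 18.2% and the share called lower 14.6%. The median log2 fold change was 0.19 over the 5 members and -0.01 over all genes tested. The exposure groups also differed in technical measures in this comparison. Totals ran from 13570283 to 20650051 reads in the female hypoxia cord and from 8818241 to 13327037 in the female normoxia cord. The most abundant gene took 4.57 to 11.1% of reads in the female hypoxia cord and 2.65 to 3.71% in the female normoxia cord. The part of these differences in the results was not tested. As a further description of the same values, Pcna had 4.08 to 6.46 reads per Mki67 read in the female hypoxia cord and 1.58 to 2.58 in the female normoxia cord, and in the other 6 groups it had 0.935 to 3.71.

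Among the mitotic members, Top2a stood at 11.8, 16.8, 17.5, 17.8 and 12.4 CPM in the female hypoxia cord, against 36.5, 39.1, 7.37, 25.4 and 23.1 CPM in the female normoxia cord. Apart from normoxia replicate 3 at 7.37 CPM, all normoxia libraries lay above all hypoxia libraries. The difference did not pass the test (log2 fold change -0.63, SE 0.33, edgeR adjusted p = 0.152). Among 18 alternatives it passed in 1, the fit without female normoxia cord replicate 3 (log2 fold change -0.88, edgeR adjusted p = 0.021). In the other alternatives it did not pass, with adjusted p up to 0.349.

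Cdk1 stood at 3.39, 7.43, 5.52, 3.30 and 3.44 CPM in the female hypoxia cord, against 5.55, 2.94, 1.02, 6.46 and 2.33 CPM in the female normoxia cord, and the groups overlapped widely. Its log2 fold change was 0.51 with an SE of 0.43 (edgeR adjusted p = 0.384). Ccnb1 averaged 4.94 ± 0.954 CPM in hypoxia and 4.84 ± 2.07 CPM in normoxia (SD, n = 5 each; log2 fold change 0.19, SE 0.29, edgeR adjusted p = 0.652). These groups had 9 to 148 reads of Cdk1 and 21 to 122 of Ccnb1 per library, against 1186 to 5593 of Pcna. The SE was 0.43 for Cdk1 and 0.15 for Pcna, so a difference of the size found for Pcna could easily be missed in Cdk1. No detection limit was computed.

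**Figure D2:**
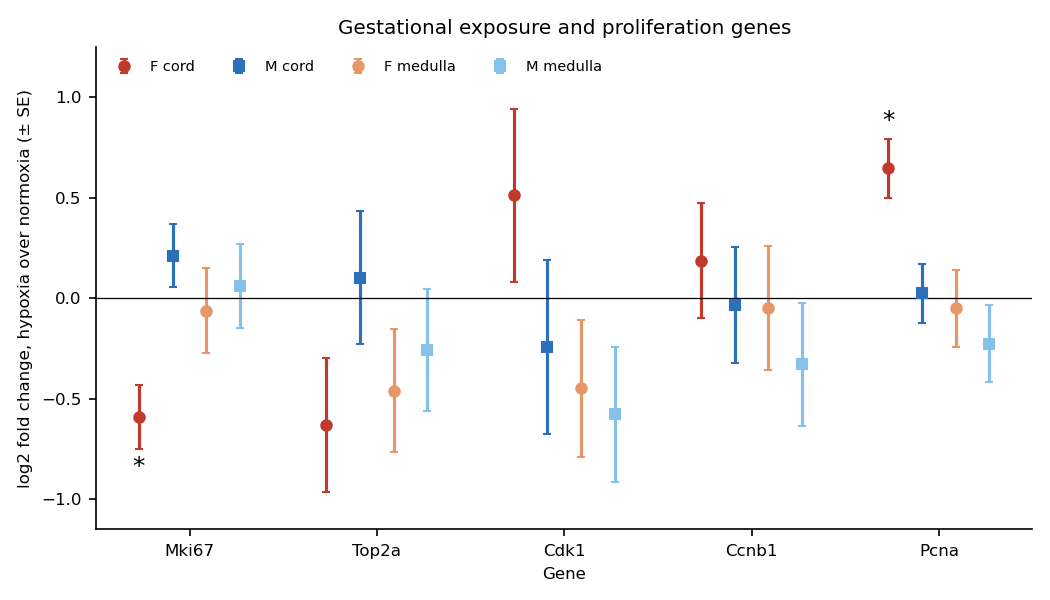
Log2 fold change of hypoxia over normoxia offspring (y axis; bars are ± 1 SE) for the 5 genes (x axis) in 4 comparisons of 5 against 5 libraries (F female, M male). Stars mark an edgeR adjusted p under 0.05, reached by Mki67 at -0.59 and by Pcna at 0.65, both in the female cord.

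In the male cord, Pcna stood at 142, 178, 155, 184 and 126 CPM in hypoxia, against 143, 139, 134, 204 and 145 CPM in normoxia. The groups overlapped almost entirely (log2 fold change 0.02, SE 0.15, edgeR adjusted p = 0.983). Mki67 stood at 66.4, 76.0, 78.2, 49.6 and 57.2 CPM in the male hypoxia cord, against 73.2, 41.1, 59.0, 59.7 and 47.8 CPM in the male normoxia cord (log2 fold change 0.21, SE 0.16, edgeR adjusted p = 0.803). None of the 5 members was called in the male cord by edgeR, DESeq2 or limma voom, and 0 had an unadjusted p under 0.05. Top2a, Cdk1 and Ccnb1 had log2 fold changes of 0.10, -0.24 and -0.03 in the male cord, with SEs of 0.33, 0.43 and 0.29. Of all genes 0.0% were called by edgeR and 6.19% had an unadjusted p under 0.05.

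Whether the exposure difference itself differed between the sexes was tested as an interaction in the cord. It passed for Mki67, whose response was more negative in females than in males by 0.80 on the log2 scale (estimate -0.80, SE 0.22, edgeR adjusted p = 0.0136). It also passed for Pcna, whose response was more positive in females than in males (0.62, SE 0.21, edgeR adjusted p = 0.0347). Top2a, Cdk1 and Ccnb1 had interaction estimates of -0.73, 0.76 and 0.22 with SEs of 0.47, 0.61 and 0.41 and did not pass. Of all genes 23.2% were called in this interaction. The call of Pcna was lost in 11 of 27 alternatives, with adjusted p up to 0.109. These were unscaled library totals, limma voom, the fit of all 40 libraries and 8 of the 20 fits without 1 library. The 8 left out male normoxia cord replicate 4, male hypoxia cord replicates 1, 3 and 5, female normoxia cord replicates 3 and 5, and female hypoxia cord replicates 2 and 3, with adjusted p from 0.0538 to 0.0739. The call of Mki67 held in 27 of 27, with adjusted p up to 0.0477.

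In the medulla the 2 exposures gave no called member in females or in males by edgeR, DESeq2 or limma voom, and 0 of 5 had an unadjusted p under 0.05. Pcna stood at 87.5, 103, 132, 71.7 and 107 CPM in the female hypoxia medulla, against 102, 116, 92.9, 131 and 90.2 CPM in the female normoxia medulla. Mki67 averaged 62.4 ± 18.5 CPM in the female hypoxia medulla and 64.5 ± 13.1 CPM in the female normoxia medulla (SD, n = 5 each). In males Pcna averaged 97.9 ± 15.1 CPM in the hypoxia medulla and 116 ± 11.7 CPM in the normoxia medulla (SD, n = 5 each). Cdk1 in males stood at 4.31, 3.27, 3.26, 4.01 and 3.76 CPM in the hypoxia medulla, against 5.05, 3.16, 4.52, 7.27 and 8.20 CPM in the normoxia medulla. Its log2 fold change of -0.58 (SE 0.34, edgeR unadjusted p = 0.102) was the farthest from 0 among the 5 members in the male medulla. Top2a, Cdk1 and Ccnb1 had log2 fold changes of -0.46, -0.45 and -0.05 in the female medulla, with SEs of 0.31, 0.34 and 0.31. Top2a and Ccnb1 had -0.26 and -0.33 in the male medulla, with SEs of 0.30 and 0.31. The share of all genes called by edgeR was 0.0% in both sexes. In the female medulla DESeq2 called 60 genes, limma voom 1 and edgeR with all 40 libraries in the fit 513, and in the male medulla each called 0. An unadjusted p under 0.05 was reached by 15.4% of all genes in the female medulla and by 0.862% in the male medulla. The interaction of sex and exposure in the medulla called 0 members with edgeR, DESeq2 or limma voom and 0.0% of all genes with edgeR, with 0 members and 6.21% of all genes at an unadjusted p under 0.05.

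The region by exposure interaction asked whether the exposure difference differed between cord and medulla. In females it passed for Pcna, with a response more positive in the cord than in the medulla by 0.71 on the log2 scale (SE 0.25, edgeR adjusted p = 0.0352), where 20.8% of all genes were called. Mki67 had an estimate of -0.52 (SE 0.27, edgeR adjusted p = 0.17), and Top2a, Cdk1 and Ccnb1 had estimates of -0.17, 0.96 and 0.24 with SEs of 0.47, 0.56 and 0.42. The call of Pcna was lost in 9 of 26 alternatives, 1 of them with RLE size factors and 8 of them fits without 1 library, with adjusted p from 0.0605 to 0.102 in those 8. The libraries left out were female normoxia medulla replicates 2 and 4, female hypoxia medulla replicates 1 and 4, female normoxia cord replicates 3 and 5, and female hypoxia cord replicates 2 and 3. In males 0 members were called by edgeR, DESeq2 or limma voom, and 0 had an unadjusted p under 0.05, against 0.0% of all genes called and 1.88% at an unadjusted p under 0.05.

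Pcna was higher in the cord than in the medulla in 20 of 20 animals. Of 14832 genes, 71 or 0.479% were higher in the cord in 20 of 20 animals, and 186 were lower in 20 of 20. Within each of the 4 combinations of sex and exposure, the 5 cord libraries lay above the 5 medulla libraries with no overlap in CPM, which held for 15 of 14832 genes, 0.101%. Scaled with TMM factors, which adjust for the composition of a library, Pcna was again higher in the cord in 20 of 20 animals. On that scale the female normoxia groups overlapped, with the cord down to 127 and the medulla up to 133 TMM-scaled CPM. In the hypoxia females, the cord values given above, 195 to 271 CPM, faced 71.7 to 132 CPM in the medulla (1.28 as a log2 ratio, SE 0.18, edgeR adjusted p = 9.23e-06). In hypoxia males, 126 to 184 CPM in the cord faced 84.0 to 119.5 CPM in the medulla (0.69 as a log2 ratio, SE 0.17, edgeR adjusted p = 0.011). In normoxia females, 134 to 186 CPM in the cord faced 90.2 to 131 CPM in the medulla (0.57 as a log2 ratio, SE 0.17, edgeR adjusted p = 0.0436).

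In normoxia males, Pcna stood at 143, 139, 134, 204 and 145 CPM in the cord, against 123, 100.04, 129, 109 and 119.8 CPM in the medulla. This difference did not pass over all genes (log2 fold change 0.42, SE 0.17, edgeR adjusted p = 0.138, unadjusted p = 0.0201), and with each animal as a block its adjusted p was 0.0856. Limma voom with quality weights and a fit of only the 10 libraries compared called it, with adjusted p of 0.042 and 0.0423. The 3 comparisons in which Pcna was called had backgrounds of 26.2% of genes called in hypoxia females, 7.76% in hypoxia males and 5.87% in normoxia females. The share called higher in the cord was 12.7%, 2.69% and 2.13%, in the same order. In normoxia males, where 0 of 5 members were called by edgeR and by DESeq2, 6.55% of all genes were called and 21.2% had an unadjusted p under 0.05. The call in normoxia females was lost in 9 of 17 alternatives, with adjusted p up to 0.112: RLE size factors, no filter, and 7 of 10 fits without 1 library, those without medulla replicates 1, 2, 3 or 5 or cord replicates 1, 2 or 4.

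**Figure D3:**
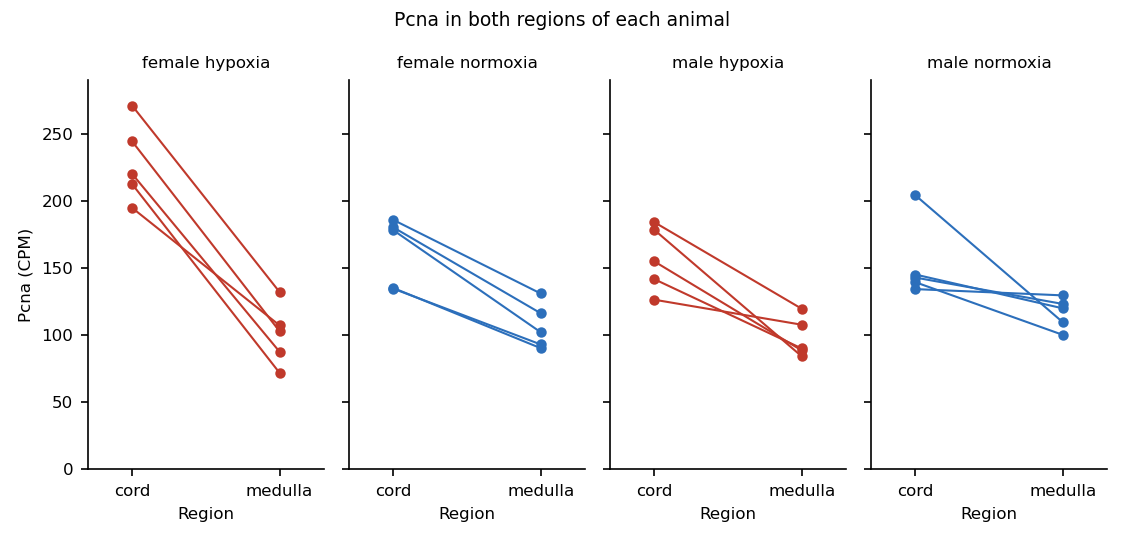
Pcna level in CPM (y axis, from 0) in the cord and medulla library of each animal (x axis), joined by a line, for the 4 combinations of sex and exposure. All 20 lines fall from cord to medulla, and the drop is widest in hypoxia females, whose means were 228 CPM in the cord and 100.2 CPM in the medulla.

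The other members were higher in the cord in fewer animals, and whether their regional difference differed from that of Pcna was not tested. Mki67 was higher in the cord in 7 of 20 animals, Top2a in 8, Cdk1 in 12 and Ccnb1 in 13. In hypoxia females Mki67 was lower in the cord in 5 of 5 animals, at 38.7 to 53.9 CPM in the cord and 40.8 to 85.9 CPM in the medulla, and did not pass the test (log2 fold change -0.34, SE 0.19, edgeR adjusted p = 0.184). The share of all genes lower in the cord in these 5 animals was not computed. With unscaled totals, the median log2 fold change of all genes in this comparison was -0.16. Cdk1 was the other member called by region, in hypoxia females, where it stood at 3.39, 7.43, 5.52, 3.30 and 3.44 CPM in the cord, against 3.70, 3.74, 0.66, 1.78 and 2.16 CPM in the medulla. The log2 fold change was 1.08 (SE 0.40, edgeR adjusted p = 0.0419). The call was lost without female hypoxia medulla replicate 3, 4 or 5 or female hypoxia cord replicate 2 or 3, with adjusted p from 0.0592 to 0.164. It was also lost with unscaled totals, with no filter, with only the 10 libraries compared and with limma voom, the last at an adjusted p of 0.437. Top2a and Ccnb1 were called in no comparison of regions.

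Females and males were also compared within each exposure. In the hypoxia cord Pcna was higher in females, 195 to 271 CPM in females and 126 to 184 CPM in males, with no overlap (log2 fold change 0.66, SE 0.15, edgeR adjusted p = 0.00515). Of all genes 19.6% were called here, 11.4% as higher in females, and 3.24% were higher in females with no overlap. Mki67 averaged 44.8 ± 5.8 CPM in female and 65.5 ± 12.2 CPM in male hypoxia cord libraries (SD, n = 5 each; log2 fold change -0.44, SE 0.16, edgeR adjusted p = 0.0567). It passed without male hypoxia cord replicate 4 or 5 or female hypoxia cord replicate 1, with adjusted p of 0.0301, 0.0459 and 0.0406, and with DESeq2, with unscaled totals and with only the 10 libraries compared. Top2a reached 11.8 to 17.8 CPM in females and 18.8 to 41.6 CPM in males and did not overlap in CPM, as did 7.21% of all genes in that direction. With TMM scaling the 2 groups overlapped, with females up to 19.7 and males down to 19.1 TMM-scaled CPM. The difference did not pass (log2 fold change -0.74, SE 0.33, edgeR adjusted p = 0.121), except in the fit of only the 10 libraries compared (adjusted p = 0.0306). Cdk1 and Ccnb1 had log2 fold changes of 0.40 and 0.14 (SE 0.43 and 0.29). These comparisons share the female hypoxia cord libraries with the exposure comparison of the female cord.

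In the normoxia cord 0 of 5 members were called between the sexes by edgeR, DESeq2 or limma voom, where 6.56% of all genes were called by edgeR. Mki67 had an unadjusted p of 0.0304 (log2 fold change 0.37, SE 0.16, edgeR adjusted p = 0.158), the 1 member under 0.05, against 23.5% of all genes. In the medulla 0 members were called between the sexes by any of the 3 tools. Of all genes, edgeR called 0.0777% in hypoxia, 11 genes, and 0.0707% in normoxia, 10 genes. DESeq2 called 41 genes in hypoxia and 16 in normoxia, limma voom 11 and 26, and edgeR with all 40 libraries in the fit 333 and 12. Cdk1 stood at 2.85, 2.45, 2.59, 3.77 and 4.68 CPM in the female normoxia medulla, against 5.05, 3.16, 4.52, 7.27 and 8.20 CPM in the male normoxia medulla. It was the 1 member with an unadjusted p under 0.05 there (unadjusted p = 0.0364, edgeR adjusted p = 0.9999), against 4.15% of all genes. In the hypoxia medulla 0 members and 14.3% of all genes had an unadjusted p under 0.05.

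Over the 8 groups, the mean of Pcna was highest in the female hypoxia cord, at 228 CPM, with the other 3 cord groups next at 163, 157 and 153 CPM. The 4 medulla groups followed, from the male normoxia medulla at 116 CPM to the male hypoxia medulla at 97.9 CPM. The gap below the female hypoxia cord, 65.7 CPM, and the gap between the cord and medulla groups, 36.6 CPM, exceeded the larger SD of the neighbouring groups. No other step did. For Mki67, Top2a, Cdk1 and Ccnb1 no step between neighbouring groups exceeded the larger SD, so neighbours in their order did not differ beyond their spread. Mki67 ran from 74.7 CPM in the female normoxia cord to 44.8 CPM in the female hypoxia cord, and Top2a from 29.2 CPM in the male normoxia medulla to 15.3 CPM in the female hypoxia cord. Cdk1 and Ccnb1 had their highest means in the male normoxia medulla, 5.64 and 5.76 CPM, and their lowest in the female hypoxia medulla, 2.41 and 3.94 CPM.

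How the members varied between animals of the same group was described by deviations of log2(CPM + 0.5) from group means over the 40 libraries. The gene closest to Cdk1 among 14831 others was Top2a, with a Pearson r of 0.80, and from the side of Top2a, Cdk1 ranked 6th. Female hypoxia medulla replicate 3 was the lowest library for both genes, with 39 Top2a and 4 Cdk1 reads. Female normoxia cord replicate 3 was next, with 65 and 9 reads. The r of Top2a and Cdk1 without these libraries was not computed. Top2a had an r of 0.65 with Mki67 and of 0.60 with Ccnb1, which ranked 96th and 155th from the side of Top2a. From the other side, Top2a ranked 60th for Mki67 and 17th for Ccnb1. Ccnb1 had an r of 0.49 with Cdk1. Among the members Mki67 was nearest to Top2a and farther from Cdk1 (0.44, rank 1503) and Ccnb1 (0.29, rank 3665). Pcna had an r of -0.23 with Mki67, 0.14 with Top2a, 0.28 with Cdk1 and 0.38 with Ccnb1. The 2 IDs closest to Mki67 were ENSRNOG00000061869 (r of 0.81, mean of 1.75 CPM) and ENSRNOG00000055300 (r of 0.79, mean of 24.8 CPM). The 40 points share animals between regions and library depth, and the correlations are descriptions.

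**Figure D4:**
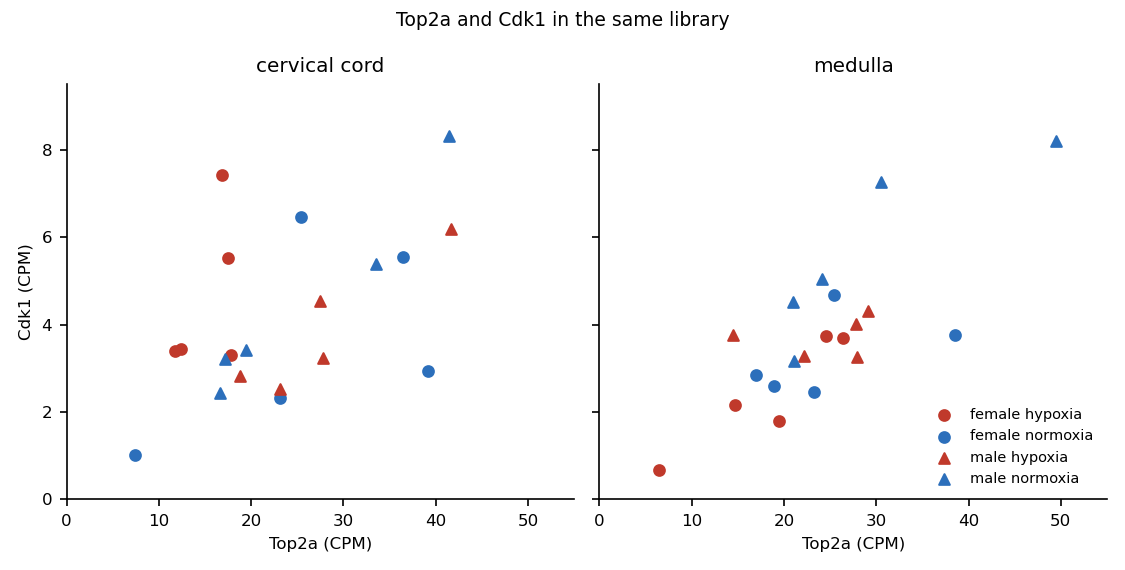
Cdk1 (y axis, CPM) against Top2a (x axis, CPM) in the 20 cord libraries (left) and the 20 medulla libraries (right); circles are females, triangles males, red hypoxia and blue normoxia. Libraries high in 1 gene tend to be high in the other, and the lowest points are female normoxia cord replicate 3 (7.37 and 1.02 CPM) and female hypoxia medulla replicate 3 (6.43 and 0.66 CPM).

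Within a region, where the 20 libraries are separate animals, Mki67 was tested against each other member, and each member was tested between the cord and the medulla of the same animal, 13 relations in all. Mki67 and Top2a were related in the medulla (Pearson r = 0.68, Spearman rho = 0.75, n = 20; permutation within groups, two-sided p = 0.00272 and 0.00092, adjusted over the 13 relations 0.0354 and 0.012). Without the 2 libraries farthest from the median of Mki67, r was 0.59. With TMM-scaled CPM r was also 0.59, and the relation no longer passed the adjustment. In the cord r was 0.65 and rho 0.53 (permutation p = 0.012 and 0.034, adjusted 0.0779 and 0.147), and r was 0.48 without the 2 farthest libraries. The relation of Mki67 and Pcna had an r of -0.50 and a rho of -0.55 in the medulla (permutation p = 0.0492 and 0.0244, adjusted 0.16 and 0.147), with an r of -0.46 without the 2 farthest libraries. In the cord that relation had an r of 0.19 and a rho of 0.23 (permutation p = 0.479 and 0.384, adjusted 0.623 and 0.554). None of the other 9 relations passed the adjustment. Between the cord and the medulla of 1 animal, r was 0.44 for Mki67, 0.33 for Pcna, -0.04 for Top2a, 0.03 for Cdk1 and 0.00 for Ccnb1, with permutation p from 0.067 for Mki67 to 0.999 for Ccnb1.

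**Figure D5:**
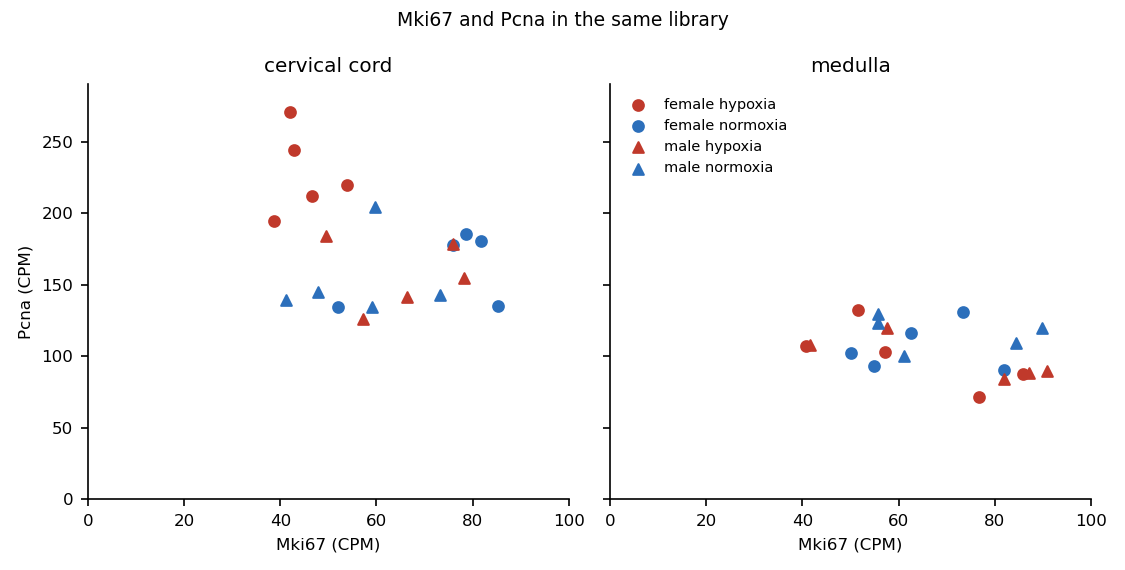
Pcna (y axis, CPM) against Mki67 (x axis, CPM) in the 20 cord libraries (left) and the 20 medulla libraries (right); circles are females, triangles males, red hypoxia and blue normoxia. The 5 female hypoxia cord libraries lie at the upper left, with 195 to 271 CPM of Pcna and 38.7 to 53.9 CPM of Mki67. Each range alone also holds other cord libraries. Male normoxia cord replicate 4 has 204 CPM of Pcna and 59.7 CPM of Mki67, and male hypoxia cord replicate 4 has 184 and 49.6 CPM.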

How the data were processed

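Microglial RNA was sequenced in 40 libraries. The deposited table holds raw counts, whole numbers of reads for each of 32883 Ensembl IDs, and every row names a gene. The tools listed, per the submitters' processing notes, are TopHat2 2.1, HTSeq and edgeR, and the build is rn6; what each did, the annotation release, the strand setting and any filter: not given in the sources used here. Reads of overlapping or antisense genes, and of the 3 Pcna pseudogenes in RefSeq's list of genes, may therefore be shared with the 5 genes. Of the 47357 rows of that list, 0 carry an Ensembl ID, so lists of other cell cycle genes and of cell type markers had no result.

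The counts were tested with edgeR 4.0.16 in R 4.3.3 (glmQLFit, glmQLFTest; TMM scaling; filterByExpr on the groups, minimum count 10). P-values were adjusted by Benjamini-Hochberg over every gene tested, and a gene was called at an adjusted p under 0.05. Exposure and sex were fitted within the 20 libraries of a region, and regions within all 40. The SE of a fold change was taken from its F statistic. Alternatives were RLE factors, no filter, DESeq2 1.42.0, limma 3.58.1 voom with quality weights, other sets of libraries, a replicate block, and each library left out in turn; unscaled library totals were added after seeing the data. Correlations used 100000 permutations within groups. The steps were tested on simulated data.

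Cord and medulla libraries of a shared number come from 1 animal, as the series design and the labels give it, and their deviations from the group means correlated at 0.06 to 0.47 in the 20 pairs. Replicates of a group are separate animals, and p-values of exposure and sex measure the spread between them. Females and males of an exposure came from the same litters, and the tests of sex and of sex by exposure took them as independent. The labels do not say which female and male shared a litter. Female and male libraries of the same replicate number had deviations that correlated at -0.40 to 0.74 in 20 pairs. The main fits held group means only, so the region and region by exposure tests took both libraries of an animal as independent. With each animal as a block, Pcna had edgeR adjusted p of 5.9e-06 in hypoxia females, 0.0199 in normoxia females and 0.00484 in hypoxia males. Cdk1 in hypoxia females had 0.0461, and the female region by exposure interaction of Pcna had 0.0119. The labels name no batch. Genes named are the 5 members and the 2 IDs of highest correlation with Mki67; members with no called difference are partly given as counts. Members and lists were chosen with earlier results of these data known.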

Additional observations from a re-analysis of the deposited data

Results flagged for a closer look

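In 2 of 40 sets of 1 gene and 1 group, a single library lay far from the other 4 by Dixon's criterion, which chance meets in about 1 of 20 sets. Mki67 stood at 52.0 CPM in female normoxia cord replicate 3, against 75.9 to 85.2 CPM in the other 4 libraries of its group. That library was also the lowest of its group for Top2a, Cdk1 and Ccnb1. For Pcna it was lowest by a narrow margin, at 134.48 CPM against 134.99 CPM in replicate 5. Pcna stood at 204 CPM in male normoxia cord replicate 4, against 134 to 145 CPM in the other 4.

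The exposure response differed between groups by an interaction test in 3 cases. In the cord, the response of Mki67 was more negative in females than in males by an estimate of -0.80 on the log2 scale (edgeR adjusted p = 0.0136). In the cord, the response of Pcna was more positive in females by 0.62 (edgeR adjusted p = 0.0347). Of all genes 23.2% were called in that interaction. In females, the response of Pcna was more positive in the cord than in the medulla by 0.71 (edgeR adjusted p = 0.0352), where 20.8% of all genes were called. The call of Mki67 held in 27 of 27 alternatives, and those of Pcna in 16 of 27 and 17 of 26.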

How the results depend on the processing

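Of 80 pairs of a gene and a comparison, 10 were called, and 4 more were called in at least 1 alternative; none of these 14 changed sign. Of the 1317 alternative values of the other 66 pairs, 75 had the other sign, all uncalled. The number of the 5 members called in the cord interaction of sex and exposure, 2, became 1 with unscaled totals, limma voom or all 40 libraries in the fit. For female minus male in the hypoxia cord, 1 became 2 with unscaled totals or DESeq2 and 3 with only the 10 libraries compared. For cord minus medulla, 2 in hypoxia females became 1 with unscaled totals, no filter, limma voom or only the 10 libraries; 1 in normoxia females became 0 with RLE factors or no filter; and 0 in normoxia males became 1 with limma voom or only the 10 libraries. For region by exposure in females, 1 became 0 with RLE factors. The share of all genes called in the main fit is given above for each comparison, and the number moved between settings too. For cord minus medulla in hypoxia females, 3886 of all genes were called in the main fit and 4017 with unscaled totals. With no filter it was 3334, with limma voom 1712 and with only the 10 libraries 132. The causes were not tested. Fits without 1 library called 2 to 3 members for exposure in the female cord, where 3639 to 4583 of all genes were called. In the cord interaction they called 1 to 2 members and 2569 to 3563 of all genes. Between the sexes in the hypoxia cord they called 1 to 2 members and 1477 to 3139 of all genes. Between regions in hypoxia females they called 1 to 2 members and 2797 to 4853 of all genes. In normoxia females they called 0 to 1 members between regions and 291 to 1110 of all genes. For region by exposure in females they called 0 to 1 members and 2236 to 4082 of all genes. With the replicate block, the number of members called was unchanged in all 16 comparisons, 2 in the female cord among them; the labels tie numbers to animals between regions only. Unscaled totals moved the median of all genes in the female cord by exposure to -0.16, where Mki67 was at -0.74 and Pcna at 0.49. The relation of Mki67 and Top2a in the medulla had r = 0.59 with TMM scaling and lost its call. Between regions of an animal, r for Top2a was 0.029 without female hypoxia medulla replicate 3, and r for Ccnb1 was -0.002 with log2(CPM + 0.1), 0.048 with TMM scaling and 0.045 without that library. Cdk1 and Ccnb1 rested on the fewest reads, medians of 49 and 59 a library.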
